A study of Mus musculus with 6 samples.

Results

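Polycomb repressive complex 1 (PRC1) was examined through 9 of its subunit genes in mouse C2C12 cells that received an siRNA targeting Meg3, an imprinted lncRNA (siRNA-MEG3), or a negative control siRNA (siRNA-NC). The genes were Cbx2, Cbx6, Cbx7, Cbx8, Ring1, Rnf2, Bmi1, Phc1 and Phc2, out of 20659 genes that could be named on the array. Cbx7 was selected on its log2 fold change between these same arrays, so its values are a description and carry no test. The members were found as non-control probes whose RefSeq accession belonged to one of the 9 genes, which gave 12 probes, 1 for each of 7 genes, 2 for Bmi1 and 3 for Cbx6. Further probes of these genes may be among the 12195 that no accession named here.

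C2C12 is an established mouse myoblast line that divides in serum and fuses into myotubes when serum is withdrawn. Both groups were grown in serum-rich medium (10% serum, with 1% antibiotics) and were transfected with a lipid reagent at 70 to 80% confluence, with siRNA given in the labels as 20 "um". The siRNA-MEG3 group and the siRNA-NC group each had 3 single-colour Agilent arrays, called biological replicates in the labels, and the sources used here do not give the time between transfection and harvest. All siRNA-MEG3 arrays lay on 1 slide and all siRNA-NC arrays on another, so slide and siRNA cannot be told apart in any value below. siRNA-MEG3 arrays 1 and 3 behaved as repeat scans of 1 hybridised array, with spot deviations that correlated at 0.98 against -0.19 to 0.52 in the other 14 pairs of arrays. siRNA-NC arrays 1 and 3 were as close as 2 readings of the same probes (variance between arrays over variance between spots 1.04, against 159 for siRNA-NC arrays 1 and 2). Each such pair was averaged and counted as 1 sample, leaving 2 samples per group, and siRNA-MEG3 array 2 also lay close to array 1 (1.33 on the same scale), so the spread within that group may be technical.

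Between 62.8 and 69.3% of spots were well above background on siRNA-MEG3 arrays and between 70.1 and 75.2% on siRNA-NC arrays, and no spot was saturated. Meg3 itself was too dim to check the labels: of its 3 probes, 0 reached that mark with siRNA-MEG3, and 1 reached it on a single array with siRNA-NC. Of 8 myoblast and muscle markers, 7 were well above background on all 6 arrays, Ckm being the exception. Their summed signal was 2447 to 2558% of the array's 75th percentile with siRNA-MEG3 and 1265 to 1309% with siRNA-NC, and most of it came from Itga7 (1734 to 1870% and 1041 to 1129%). The 8 markers did not move one way: 6 log2 fold changes were positive and 2 negative. Myog, the differentiation factor myogenin, was the 1 marker past the threshold and rose by 3.39 ± 0.22 on the log2 scale (SE, n = 2 samples per group; limma adjusted p = 0.0246). Myf5, a factor of undifferentiated myoblasts, stood at -2.94 ± 0.41 without overlap (adjusted p = 0.0707), and Des, the intermediate filament gene desmin, at -0.30 ± 0.59 (adjusted p = 0.843). Of 12 markers of immune, endothelial, epithelial, fat and glial cells with a probe, 5 were well above background on all 6 arrays and Epcam and Krt18 on none, and their sum was 127 to 153% with siRNA-MEG3 and 120 to 123% with siRNA-NC. Whether these muscle marker values have a part in the PRC1 values was not tested, and in these bulk samples fewer cells of a type and less RNA per cell cannot be told apart.

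PRC1 is one of the main Polycomb complexes that keep developmental genes silent. In its canonical form a chromobox protein such as CBX2, CBX6, CBX7 or CBX8 reads the trimethyl mark that PRC2 sets on histone H3, RING1 or RNF2 attaches ubiquitin to histone H2A, a PCGF protein such as BMI1 stimulates that ligase, and a polyhomeotic PHC protein compacts the bound chromatin. In muscle cells Polycomb complexes are known for holding differentiation genes silent in dividing myoblasts. CBX7 and BMI1 are best known as repressors of the Cdkn2a locus, whose products stop the cell cycle.

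The promoters of the chromobox genes with the lowest log2 fold changes, Cbx7 and Cbx8, are shown because their signals differed most between the groups among the members. The 250 bases before each gene's start are printed 5′ to 3′ on the gene's own strand, from RefSeq on GRCm38.p6, with every CANNTG in capitals. Those are the core letters of the E-box, of which myogenic factors such as MYOD1 and myogenin prefer some forms. Cbx7 lies on the minus strand at chr15:79932647-79932896 and Cbx8 on the minus strand at chr11:119040914-119041163.
Cbx7: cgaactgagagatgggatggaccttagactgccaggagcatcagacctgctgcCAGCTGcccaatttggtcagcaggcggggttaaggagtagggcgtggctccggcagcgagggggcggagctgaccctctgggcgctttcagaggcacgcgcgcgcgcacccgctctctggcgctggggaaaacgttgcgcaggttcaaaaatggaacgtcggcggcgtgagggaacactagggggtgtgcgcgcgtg
Cbx8: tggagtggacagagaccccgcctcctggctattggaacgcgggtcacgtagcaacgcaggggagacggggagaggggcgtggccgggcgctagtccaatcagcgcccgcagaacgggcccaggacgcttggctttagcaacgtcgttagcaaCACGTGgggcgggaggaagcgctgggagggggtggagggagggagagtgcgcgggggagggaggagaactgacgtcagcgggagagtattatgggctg
Each stretch held 1 CANNTG, a pattern that is the same on both strands. In Cbx7 it was CAGCTG, itself one form of CANNTG, and in Cbx8 it was CACGTG. Over the full windows of 300 bases, from 250 before to 50 after the start, Cbx7 had 33 CpG and Cbx8 had 24 CpG, against a median of 7 over all 32851 promoters of the table. Among the other members Ring1 had 37, Cbx6 31, Rnf2 30, Bmi1 23 and Phc1 9, and the Phc2 promoters had 19, 2 and 45. CANNTG was present in 72.3% and CAGCTG in 16.3% of all promoters, and Cbx6, Ring1 and 1 of the 3 Phc2 promoters also held 1 CAGCTG. Promoters were listed for 8 of the 9 members. A match is only a run of letters and is no evidence that a factor binds there.

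Signals are given as a percentage of the array's own 75th percentile, and log2 fold changes are siRNA-MEG3 over siRNA-NC on the processed signal scaled in this way. Levels of different probes are not compared with each other. Cbx7 is the chromobox subunit that anchors much of canonical PRC1 in self-renewing cells, and it had 1 probe (A_55_P1980401) with 1 spot per array. Its signal was 0.565, 0.826 and 0.852% of the 75th percentile on siRNA-MEG3 arrays 1 to 3, against 27.6, 18.6 and 20.0% on siRNA-NC arrays 1 to 3. The groups did not overlap, and all siRNA-MEG3 arrays lay far below the lowest siRNA-NC array. The spot cleared the background mark on 0 of 3 arrays with siRNA-MEG3 and on 3 of 3 with siRNA-NC, so Cbx7 passed the filter on dim probes only through siRNA-NC.

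Before scaling, the processed signal of the Cbx7 spot was 7.39 ± 7.38, 11.02 ± 4.70 and 10.5 ± 7.08 on siRNA-MEG3 arrays 1 to 3 (± the scanner's own error). On siRNA-NC arrays 1 to 3 it was 356 ± 36.0, 424 ± 42.6 and 247 ± 25.1. With siRNA-MEG3 the value did not stand clear of its own error, and with siRNA-NC it did. The unprocessed median pixel was 45.5, 46 and 47 over a local background of 17, 18 and 20 with siRNA-MEG3, against 329, 422 and 258 over 23, 23 and 20 with siRNA-NC. The raw pixels therefore separated the groups too, and local background lay between 17 and 23 on all 6 arrays.

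Averaged over samples, the log2 fold change of Cbx7 was -4.79 ± 0.24 (SE, n = 2 samples per group), the lowest of 22057 genes. Because the siRNA-MEG3 value is not well above background, only a rough estimate can be given. On the scaled processed signal, the siRNA-NC mean of Cbx7 lay 15.8-fold above the lowest signal of probes well above background with siRNA-MEG3. That lowest signal was taken on each siRNA-MEG3 array and averaged over samples. It is not a strict bound, since a probe that misses the mark can lie above it. On siRNA-MEG3 array 2, Adipoq missed the mark at a scaled log2 signal of -6.27, against a lowest marked signal of -6.60. The estimate does not carry over to other treatments of the background. With normexp on the median pixels, an offset of 50 and the speck spots left out, the log2 fold change was smaller, at -1.64 ± 0.33. In the authors' deposited value table it was -4.44 ± 0.22. Under normexp the median of all genes was 0.20 in place of -0.02.

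Areas of the siRNA-MEG3 arrays were dark, in that over 5% of the spots of a block of 30 by 17 spots lay more than 4-fold below the siRNA-NC mean. Such blocks covered 18.7, 7.65 and 13.3% of siRNA-MEG3 arrays 1 to 3. The Cbx7 spot lay in none of them, its own block having 2.92, 4.52 and 2.28% of such spots. Among the 111 spots within 5 rows and columns of it, the median log2 difference from the siRNA-NC mean was -0.22, -0.29 and -0.21, and 2, 2 and 1 of them were more than 4-fold lower. The Cbx7 spot itself lay at -5.28, -4.75 and -4.70 on siRNA-MEG3 arrays 1 to 3. Whether a fault limited to this spot has a part was not tested.

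Cbx8 encodes the chromobox subunit that in human cells also binds the leukaemia fusion partner MLLT3, and it was measured by 1 probe well above background on all 6 arrays. Its signal was 14.3, 15.96 and 14.5% with siRNA-MEG3 and 55.2, 48.4 and 53.5% with siRNA-NC. The groups lay well apart and the arrays within each were close together. The log2 fold change was -1.76 ± 0.21 (95% interval -2.33 to -1.19), 3.38-fold lower, and it missed the threshold of 0.05 over all genes (limma adjusted p = 0.0541). It passed with all 6 arrays counted as samples (adjusted p = 0.000444, where 26.0% of all genes passed), with 5 samples (0.00680), with dark blocks left out (0.0438) and without siRNA-MEG3 replicate 2 (0.00580, where 7.92% of all genes passed as lower). Over all 17 alternatives the adjusted p ran to 0.152, its value with normexp. The spot lay in no dark block on the siRNA-MEG3 arrays. Its block had 1.69, 4.90 and 1.48% of spots more than 4-fold lower on arrays 1 to 3, so array 2 was just under the limit of 5%.

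Cbx6, a less studied chromobox subunit, had 3 probes that disagreed in direction. The brightest (A_51_P391764) stood for the gene and gave 686 and 799% on siRNA-MEG3 arrays 2 and 3, against 1466, 1111 and 1554% on siRNA-NC arrays 1 to 3. Its spot on siRNA-MEG3 array 1 was marked as an outlier and left out, so sample 1 of that group rests on array 3 alone. The groups did not overlap, but this spot lay in a dark block on siRNA-MEG3 arrays 1 and 3. The log2 fold change was -0.81 ± 0.26 (limma adjusted p = 0.224) and it did not pass.

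The second Cbx6 probe (A_51_P221428) gave 109.9, 102.0 and 111.0% with siRNA-MEG3 and 114.4, 193.3 and 108.5% with siRNA-NC. Here siRNA-NC array 2 stood alone and the groups overlapped, with a log2 fold change of -0.47 ± 0.34 (adjusted p = 0.545 over 26348 probes). The third and dimmest probe (A_55_P2111741) gave 8.39, 6.71 and 8.71% with siRNA-MEG3 and 4.03, 4.45 and 5.17% with siRNA-NC. It went the opposite way without overlap, at 0.75 ± 0.23 (adjusted p = 0.216). The direction of Cbx6 is therefore not settled by these probes, and with the mean of its probes the gene stood at -0.17.

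Cbx2, the chromobox subunit known for compacting chromatin and for its role in male sex determination, had 1 probe. It gave 130.7, 114.1 and 130.0% with siRNA-MEG3 and 141.0, 158.3 and 138.8% with siRNA-NC. The arrays did not overlap, but the gap was small beside the spread, and at -0.29 ± 0.22 Cbx2 did not pass (limma adjusted p = 0.557, 95% interval -0.87 to 0.30).

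**Figure D1:**
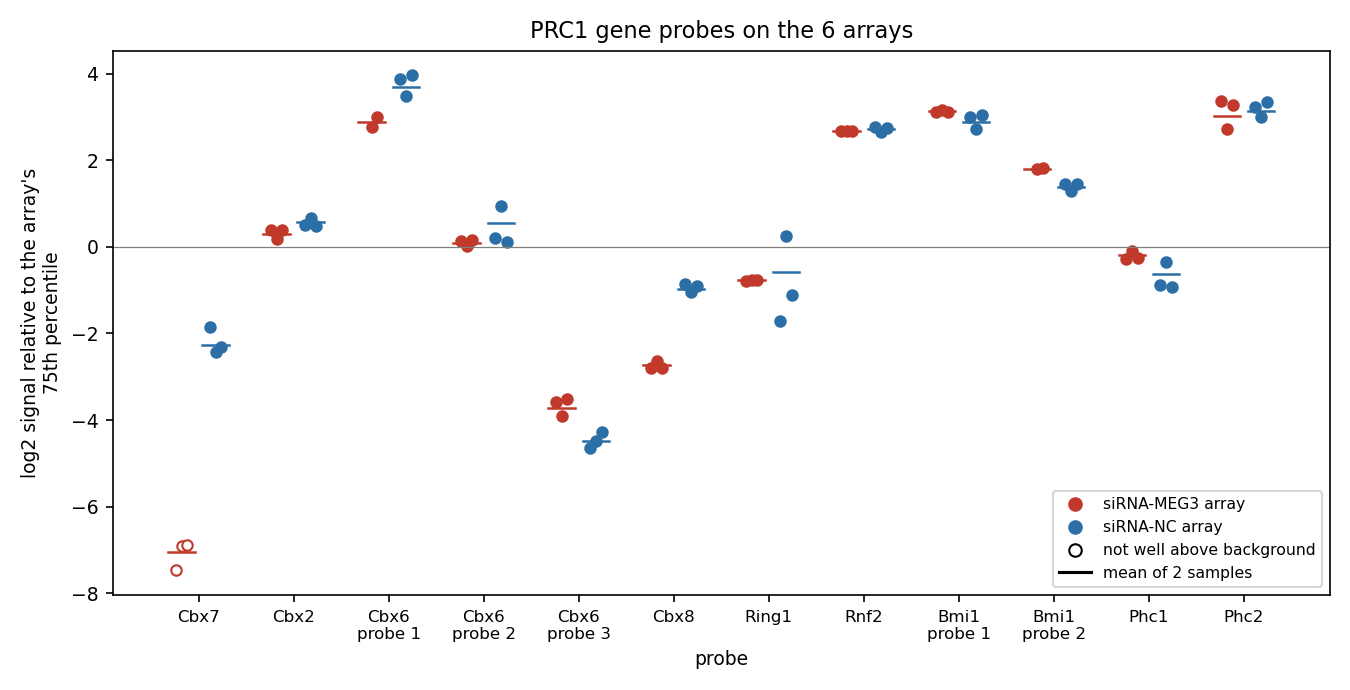
Log2 signal of the 12 probes of the 9 PRC1 genes relative to the array's 75th percentile (vertical axis), with 1 point per array, siRNA-MEG3 to the left of siRNA-NC, and bars at the mean of 2 samples. Open points are not well above background. The 3 siRNA-MEG3 points of Cbx7 are the only open ones, Cbx8 separates without overlap, and the 3 Cbx6 probes do not share a direction.

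The catalytic subunits, which carry the ubiquitin ligase activity, did not pass the test. Ring1 gave 57.9, 59.1 and 59.2% with siRNA-MEG3 and 30.5, 118.7 and 46.4% with siRNA-NC. siRNA-NC array 2 was the highest and array 1 the lowest of all 6, so the siRNA-MEG3 arrays lay inside the siRNA-NC range. The log2 fold change was -0.18 ± 0.60 (limma adjusted p = 0.907, 95% interval -1.83 to 1.46), and without siRNA-NC replicate 2 it turned to 0.64. Rnf2, the ligase subunit used most widely, gave 637, 637 and 640% with siRNA-MEG3 and 682, 633 and 672% with siRNA-NC. These ranges overlapped, and the log2 fold change was -0.04 ± 0.20 (adjusted p = 0.945, 95% interval -0.58 to 0.50).

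Bmi1, the PCGF subunit that activates the ligase, had 2 probes that were higher with siRNA-MEG3 on every usable array. The brighter (A_55_P2170335) gave 867, 896 and 870% with siRNA-MEG3 and 796, 661 and 829% with siRNA-NC. The other (A_52_P39157) gave 345 and 354% on siRNA-MEG3 arrays 2 and 3, array 1 being marked as an outlier, against 275, 246 and 275% with siRNA-NC. Neither probe overlapped between the groups and neither passed, with log2 fold changes of 0.27 ± 0.22 (limma adjusted p = 0.591) and 0.43 ± 0.21 (adjusted p = 0.370). The brighter spot lay in a dark block on siRNA-MEG3 array 2.

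The polyhomeotic genes, whose products polymerise through a SAM domain, did not pass either. Phc1 gave 82.2, 93.4 and 83.3% with siRNA-MEG3 and 54.0, 78.6 and 53.0% with siRNA-NC. The lowest siRNA-MEG3 array stood just above siRNA-NC array 2, and the log2 fold change was 0.44 ± 0.28 (limma adjusted p = 0.490). Its spot lay in a dark block on siRNA-MEG3 arrays 1 and 3. Phc2 gave 1031, 663 and 974% with siRNA-MEG3 and 944, 798 and 1020% with siRNA-NC. siRNA-MEG3 array 2 was the lowest of all and the groups overlapped, with a log2 fold change of -0.12 ± 0.30 (adjusted p = 0.878), which turned to 0.18 without siRNA-MEG3 replicate 2.

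Counted over the 9 genes, 1 (Cbx7) was past the adjusted threshold and lower, beside 0.422% of all 22057 genes lower, and nothing is read from this count because the contrast chose Cbx7. 0 of 9 were past it and higher, beside 0.952% of all genes. At an unadjusted limma p under 0.05, 3 of 9 were lower (Cbx6, Cbx7 and Cbx8), beside 8.55% of all genes, and 0 were higher, beside 10.1%. Nothing is read from the first of these either, since it includes Cbx7; without Cbx7 it was 2 of 8. The arrays of the groups did not overlap in 6 of 9 genes, 4 lower (Cbx2, Cbx6, Cbx7 and Cbx8) and 2 higher (Bmi1 and Phc1), beside 47.2% of all genes (21.9% lower and 25.3% higher), so that this is a common outcome on these arrays. Without Cbx7, 3 of 8 were lower without overlap and 2 of 8 higher. In these counts Cbx6 is placed by its brightest probe. Its dimmest probe was higher without overlap, at an unadjusted limma p of 0.0292 in the fit over all probes. The median log2 fold change was -0.18 over the 9 members, -0.15 without Cbx7 and -0.02 over all genes. All 4 chromobox members had a negative value by their brightest probe, beside 11410 of all 22057 genes. Nothing is read from this, since the 4 include Cbx7, and Cbx6 had probes of both signs. The ligase, PCGF and PHC subunits lay between -0.18 and 0.44.

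Of further canonical subunits, Pcgf2, Phc3 and Scmh1 had a median log2 fold change of -0.55, and 0 of 3 passed in either direction. Pcgf2, the close relative of Bmi1 also called Mel18, had the smallest p of this list. Its brighter probe gave 57.6, 60.04 and 58.4% with siRNA-MEG3 and 86.6, 83.3 and 93.1% with siRNA-NC, a log2 fold change of -0.55 ± 0.20 (limma adjusted p = 0.264). With dark blocks left out, Pcgf2 was no longer measured.

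Variant PRC1 complexes carry RYBP or YAF2 in place of a chromobox protein and ubiquitinate H2A without reading the PRC2 mark. Of 19 listed genes 18 were measured, 0 passed in either direction, 15 had a positive log2 fold change, beside 10647 of all 22057 genes, and the median was 0.30. The smallest p was that of Tfdp1, the DP partner of E2F6 in the PCGF6 complex, which gave 193.1, 205.7 and 194.7% with siRNA-MEG3 and 108.1, 124.1 and 109.0% with siRNA-NC. The groups did not overlap, and at 0.78 ± 0.21 it did not pass (limma adjusted p = 0.178).

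Enzymes and cofactors that remove ubiquitin from H2A had a median of 0.01 over the 7 of 9 genes measured, and 0 passed. Their smallest p was that of the deubiquitinase Usp16, at 0.23 ± 0.25 (limma adjusted p = 0.699). The HP1 chromobox genes Cbx1, Cbx3 and Cbx5 read a different mark on histone H3 and are best known from heterochromatin. Of these 3 genes 0 passed the threshold. Cbx3 had the smallest p at -0.37 ± 0.29 (adjusted p = 0.569), but its dimmer probe pointed the other way, and the gene stood at 0.37 with the mean of both. Of 6 PRC2 core genes 0 passed, the smallest p being that of the histone chaperone Rbbp7 at 0.42 ± 0.22 (adjusted p = 0.403). Over all 48 listed genes 42 were measured and 0 passed, beside 1.37% of all genes. At an unadjusted limma p under 0.05 there were 6 (4 higher and 2 lower), beside 18.6%.

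Of 8 genes known to respond to CBX7 or Bmi1, 5 were measured and 0 passed. Cdkn2a, Cdkn2b and the epithelial cadherin gene Cdh1 were not well above background on any of the 6 arrays with any probe, so the best-known Polycomb targets gave no comparison. The 5 measured genes all had positive log2 fold changes with a median of 0.81, and 10647 of all 22057 genes were positive. The list gives no direction of response for its genes, so nothing about Cbx7 or Bmi1 is read from this shared sign. Fos, an immediate early transcription factor gene, gave 24.9, 24.9 and 25.0% with siRNA-MEG3 and 6.72, 8.48 and 6.96% with siRNA-NC. The groups lay far apart, and at 1.71 ± 0.22 Fos had the smallest p of the list without passing (limma adjusted p = 0.0628).

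**Figure D2:**
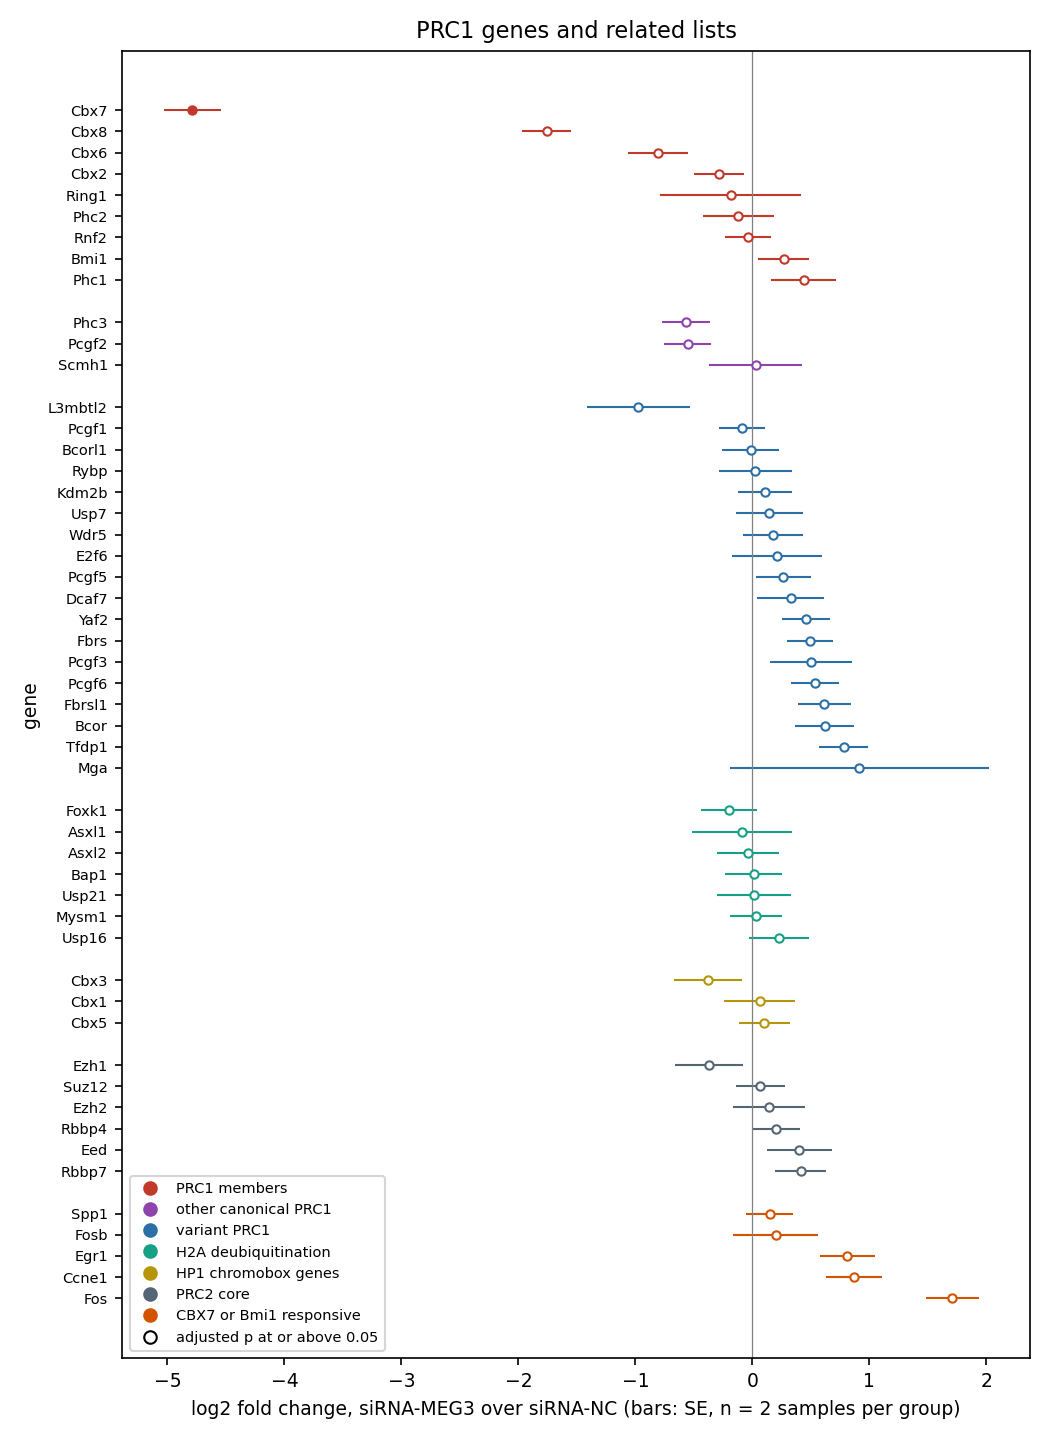
Log2 fold change of siRNA-MEG3 over siRNA-NC (horizontal axis) for the 9 PRC1 genes and the measured genes of 6 related lists, with bars for the SE at 2 samples per group. Open points are at an adjusted p of 0.05 or above. Cbx7 alone is filled, but it was chosen on this contrast, so its fill is no test. Cbx8 follows at -1.76, and Fos stands at 1.71.

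Cbx7 and Cbx6 are neighbours on mouse chromosome 15, with D730005E14Rik and the antiviral cytidine deaminase gene Apobec3 between them, while Cbx2 and Cbx8 are neighbours on chromosome 11. Measured named genes, 3 on each side of Cbx7 and 3 on each side of Cbx2 and Cbx8, were set beside them. On the Cbx6 side of Cbx7, Apobec3 stood at -0.02 ± 0.23 and D730005E14Rik at -0.16 ± 0.43. D730005E14Rik was dim, at 1.03 to 2.29% with siRNA-MEG3 and 1.53 to 1.95% with siRNA-NC. On the other side, Pdgfb, which encodes the B chain of platelet-derived growth factor, gave 27.6, 25.2 and 26.9% with siRNA-MEG3 and 12.3, 10.6 and 12.6% with siRNA-NC, without overlap. Its log2 fold change was 1.19 ± 0.21 and did not pass (limma adjusted p = 0.107). Beyond it the ribosomal protein gene Rpl3 stood at 0.07 ± 0.24 and the synaptic vesicle gene Syngr1 at -0.01 ± 0.43.

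On chromosome 11 the adjacent genes did not share a value, with Cbx2 at -0.29 and Cbx8 at -1.76. The 6 genes set around them ran from -0.51 ± 0.24 for the secreted-protein gene C1qtnf1 to 0.68 ± 0.21 for the splicing factor gene Rbfox3, and 0 of 6 passed. The others were Engase at -0.37, the lysosomal glucosidase gene Gaa at -0.27, the exon junction gene Eif4a3 at -0.26 and Card14 at 0.11. Engase, Eif4a3 and Card14 were no longer measured with dark blocks left out. C1qtnf1 stood at -1.06 with the mean of its probes. Rbfox3 was dim, at 2.99 to 3.14% with siRNA-MEG3 and 1.76 to 2.09% with siRNA-NC. None of these 6 genes stood as low as Cbx8. Counted from the lowest log2 fold change, Cbx8 ranked 499 of 22057 genes, so few genes stand as low and nothing is read from this. For Cbx7 the same comparison shows nothing either, because Cbx7 was chosen on this contrast and is the lowest of all genes.

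**Figure D3:**
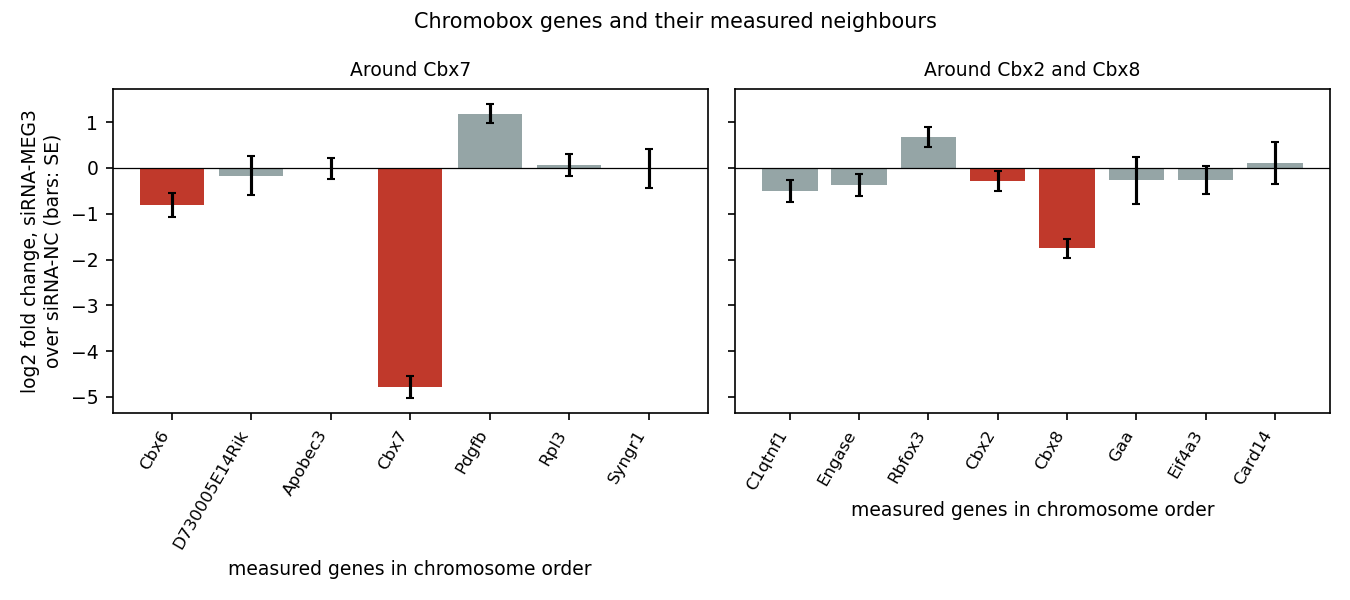
Log2 fold change of siRNA-MEG3 over siRNA-NC (vertical axis, bars for the SE, n = 2 samples per group) of chromobox genes (red) and measured named genes around them (grey) in chromosome order. Cbx7, chosen on this contrast, stands at -4.79 and Cbx8 at -1.76, and the other genes run from -0.81 for Cbx6 to 1.19 for Pdgfb.

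The genes whose pattern over the 6 arrays was most like that of Cbx7 were found by the Euclidean distance between centred log2 values, among 15248 named genes. The nearest were Fbxo25, an F-box gene of ubiquitin ligases, at 1.34, Tbc1d14, an autophagy regulator gene, at 1.39, H2-M10.1, a non-classical class I histocompatibility gene, at 1.45, Ubxn4, an endoplasmic reticulum quality control gene, at 1.496, and Lyar, a nucleolar growth gene, at 1.55. Their correlations with Cbx7 over these 6 arrays lay between 0.986 and 0.997, which describes 2 separated groups of arrays rather than a graded relation. Fbxo25 gave 3.46, 3.61 and 3.48% with siRNA-MEG3 and 63.7, 41.2 and 50.8% with siRNA-NC, and was well above background on all of them. Lyar was like Cbx7 in being below background on all 3 siRNA-MEG3 arrays, at 1.15, 1.08 and 1.43% against 18.5, 11.8 and 19.0% on siRNA-NC arrays. The 5 fitted log2 fold changes ran from -3.81 to -3.66. Tbc1d14 and H2-M10.1 were well above background on only 1 of 3 siRNA-MEG3 arrays and Ubxn4 on 2 of 3.

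**Figure D4:**
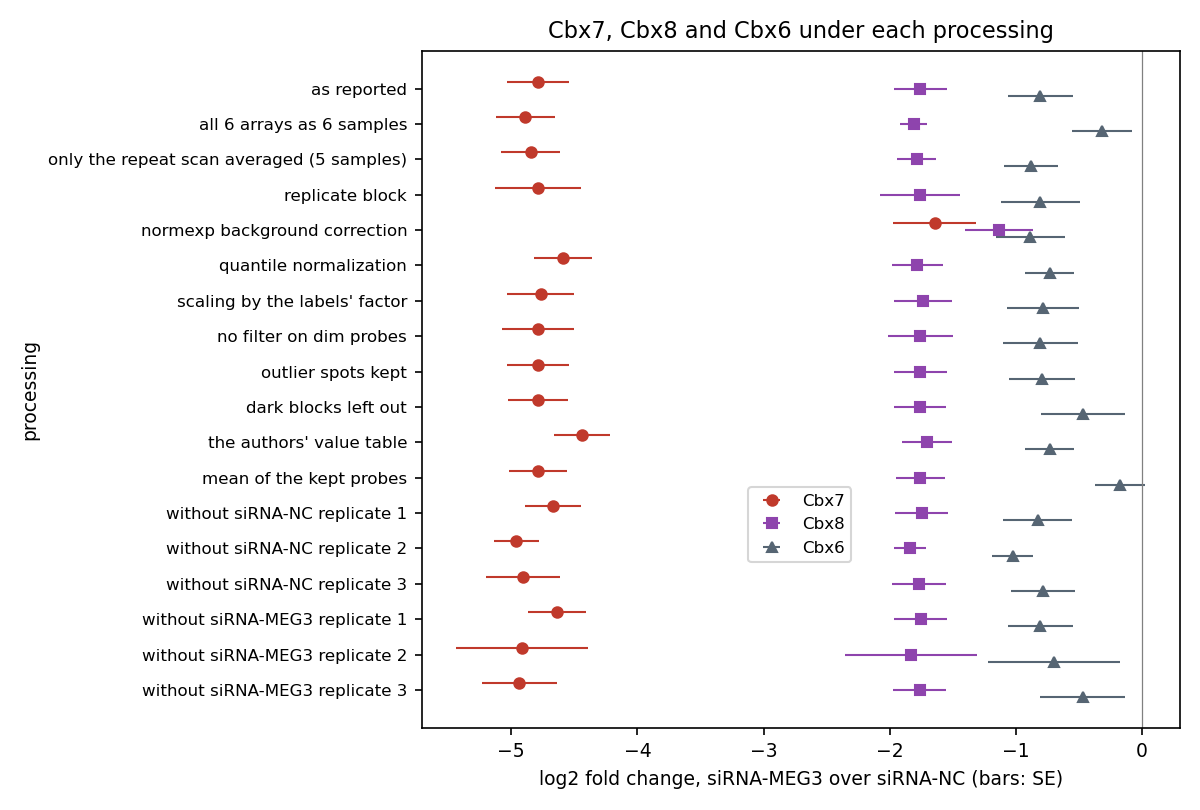
Log2 fold change of siRNA-MEG3 over siRNA-NC (horizontal axis, bars for the SE) of Cbx7, Cbx8 and Cbx6 under the reported processing and 17 alternatives (vertical axis). Cbx7 stays between -4.96 and -4.44 except with normexp, where it is -1.64, Cbx8 lies between -1.84 and -1.14, and Cbx6 between -1.03 and -0.17, not always by the same probe.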

How the data were processed

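Per the labels, total RNA of C2C12 cells was hybridised to Agilent mouse arrays, and the authors' scaling averaged replicate probes and rested on those with an intensity of 30 or more on every array. The deposited scanner files came, per the file headers, from Agilent Feature Extraction 11.0.1.1 and give processed signal intensity, its error, median pixel and local background for each spot. The authors' deposited table of the whole series holds log2 values, which correlated at 0.9992 to 0.9997 with the log2 processed signal and had medians of 8.11; its exact between-array step stays unknown.

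Here the log2 processed signal was set relative to each array's 75th percentile over 39429 probes, 27234 of them named through accessions in a RefSeq table of GRCm38.p6. Spots marked as outliers were left out and spots of a probe averaged. A probe was kept if every array of 1 or both groups had it well above background, the brightest standing for its gene, which left 22057 genes, 15367 with a name and 6690 known by accession only. limma 3.58.1 in R 4.3.3 (lmFit, eBayes, Benjamini-Hochberg over all genes, two-sided, threshold 0.05) was fitted to 2 samples per group and tested on simulated data. Normexp (offset 50) used the median signal, and left out 15 spots on a bright speck whose local background was over 100 times the array's median. The number of arrays limits the precision. The members and lists were chosen with earlier results of these data known. Named genes were every member, the smallest-p gene of each list where none passed, 3 measured neighbours on each side, and the 5 genes nearest to Cbx7 in pattern; Myog was added with its values seen. Of the genes set around PRC1, 1 is not reported here.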

Additional observations from a re-analysis of the deposited data

How the results depend on the processing

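Across 17 alternatives, 0 PRC1 members were called higher, and the sign of Cbx2, Cbx7, Cbx8, Bmi1 and Phc1 was kept wherever they were measured. Cbx6 was negative in each, but with 6 samples (-0.32), with dark blocks left out (-0.47) and without siRNA-MEG3 replicate 3 (-0.47) its second probe stood for it, and with the mean of probes it was -0.17. Cbx7 stood at -1.64 with normexp, at -4.44 in the authors' value table and between -4.96 and -4.64 with 1 array left out. The count of members called lower was 2 with 6 samples, 5 samples or dark blocks left out. It was 0 with normexp and with no filter on dim probes (where more genes are tested), and 1 with replicate 1 or 3 of a group left out. Without replicate 2 of a group, 1 sample was left in that group and the count of members moved. A lone sample is assumed to vary like the other group, and without siRNA-MEG3 replicate 2 the fit also gave the genes 1 common SE, 0.52. Over all genes, 210 were higher and 93 lower. With 6 samples these counts were 3124 and 2587, with 5 samples 966 and 922, with normexp 108 and 54, and with no filter 0 and 0 by limma (4358 at an unadjusted p under 0.05). Scaling by the labels' factor gave 186 and 62. With 1 array left out they ran from 0 to 1200 higher and from 0 to 1794 lower: both were 0 without siRNA-NC replicate 2 (7436 at an unadjusted p under 0.05) and highest without siRNA-MEG3 replicate 2, while 40 were lower without siRNA-NC replicate 1. Of the lists around PRC1, 12 genes were called with 6 samples, 2 with 5 samples and 0 to 1 with 1 array left out. For these changes the cause was not tested.

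Same-numbered arrays did not deviate together (r from -0.038 to -0.029, and 0 of 3 siRNA-MEG3 arrays correlated best with their own number). This cannot decide whether the numbers pair the samples, because the spread within siRNA-MEG3 may be technical. A replicate block in the fit left 124 genes higher and 28 lower.

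Signs turned for some genes that did not pass. Ring1 stood at 0.0894 with 6 and 0.0915 with 5 samples and at 0.64 without siRNA-NC replicate 2. Rnf2 stood at 0.0012 with quantile normalization and 0.0013 in the authors' value table, Phc2 at 0.18 without siRNA-MEG3 replicate 2, and Cbx3 at 1.12 with dark blocks left out and 0.37 with the mean of probes. Among the neighbours, with 6 samples Apobec3 stood at 0.0080, Rpl3 at -0.0022, Syngr1 at 0.18 and Card14 at -0.0706, and with 5 samples Apobec3 stood at 0.0348 and Syngr1 at 0.18. With the labels' factor Apobec3 stood at 0.0070 and Syngr1 at 0.0160. Card14 stood at -0.0081 with quantile normalization and at -0.0053 in the authors' table, and D730005E14Rik at 0.59 with normexp. With 1 array left out, Apobec3 ran from -0.10 to 0.13, Rpl3 from -0.12 to 0.0870, Syngr1 from -0.0209 to 0.54, Eif4a3 from -0.27 to 0.0794, D730005E14Rik from -0.30 to 0.38, Card14 from -0.49 to 0.17, Ring1 from -0.34 to 0.64 and Phc2 from -0.27 to 0.18.

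Limits: 2 samples per group, slide and siRNA on the same arrays, and 1 named probe for each of 7 members. Signal over background limits Cbx7, which was not well above background with siRNA-MEG3, so the size of its difference is only roughly known.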
